A study of Mus musculus with 15 samples.

Results

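The Lin28, Igf2bp and Hmga genes and Trim71 are RNA-binding and chromatin proteins made in the early embryo and again in many tumours. Here they were 8 mouse genes: Lin28a, Lin28b, Igf2bp1, Igf2bp2, Igf2bp3, Hmga1, Hmga2 and Trim71. They were found by symbol, with the older name Lin28 for Lin28a, among 30818 gene names on the array. They were read by 14 of its 39429 probes, and all 14 probes passed the filter on dim signal.

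Mouse embryonic stem cells (ES cells) and embryoid bodies, the aggregates in which such cells differentiate, were profiled with 1-colour Agilent expression arrays. The labels name the embryoid bodies EB9. There were 4 EB9 samples and 4 ES samples whose labels give Cbx7 as depleted, with the knockdown name KD33, and 4 EB9 and 3 ES samples labelled control. The series' design text names the ES control group shCtr, while the treatment label of the controls is none. Cbx7 is the chromodomain subunit through which some Polycomb complexes in ES cells recognise methylated histone tails. The labels call the samples biological replicates, and do not say whether the knockdown cells were 1 clone or a pool. With 1 such knockdown, effects of Cbx7 loss and of other targets of the same knockdown cannot be told apart.

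Lin28a and Lin28b bind the precursors of the let-7 microRNAs and block their maturation, and mature let-7 in turn represses Lin28a, Lin28b, Hmga2, Trim71 and the Igf2bp genes. Trim71 is a let-7 target of early embryos that itself binds and represses mRNAs. The Igf2bp proteins bind mRNAs, Igf2 mRNA among them, and affect their stability, transport and translation, while Hmga1 and Hmga2 bind AT-rich DNA through AT hooks and shape chromatin in undifferentiated cells. In ES cells Lin28a is known as a pluripotency-associated factor, and Hmga2 is known to be switched on as the cells leave that state.

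The let-7 sequences below are shown because the family is known to target several of these genes through a shared seed (bases 2 to 8, capitals). The RefSeq table (GRCm38.p6) held 11 entries of 5p mature let-7 and miR-98 with 9 distinct sequences, and all 11 carried the seed GAGGUAG.
mmu-let-7a-5p: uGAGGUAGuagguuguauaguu
mmu-let-7b-5p: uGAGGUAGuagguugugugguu
mmu-let-7c-5p: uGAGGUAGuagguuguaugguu
mmu-let-7d-5p: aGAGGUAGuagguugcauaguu
mmu-let-7e-5p: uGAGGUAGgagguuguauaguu
mmu-let-7f-5p: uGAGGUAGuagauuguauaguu
mmu-let-7g-5p: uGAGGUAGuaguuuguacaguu
mmu-let-7i-5p: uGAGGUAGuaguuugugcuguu
mmu-miR-98-5p: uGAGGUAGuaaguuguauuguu

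Lin28 proteins are known to contact a GGAG stretch in let-7 precursors. GGAG, on the RNA's own strand, was present in 9 of the 12 let-7 family precursors, and in 447 of all 1005 mouse precursors in the table (44.5%). One precursor with the stretch (capitals) and one without it are shown.
Mirlet7g, chr9:106178840-106178927, plus strand: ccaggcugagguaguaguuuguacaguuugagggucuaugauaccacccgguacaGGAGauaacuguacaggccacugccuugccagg
Mirlet7b, chr15:85707319-85707403, plus strand: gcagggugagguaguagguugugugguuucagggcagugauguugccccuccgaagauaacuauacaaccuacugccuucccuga

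Among the probes of the 8 genes, 1 of 14 contained CTACCTC, the sense-strand match to the let-7 seed. It was the Hmga2 probe A_52_P300730, at chr10:119798739-119798798 on the minus strand of mm9. The same letters were in 150 of the 39429 probes (0.380%). The 30 bases around the match (capitals), at chr10:119798739-119798768, are
A_52_P300730: atcaaaacacactaCTACCTCttaagtccc
The match is a run of letters and does not by itself make a site, and the files do not say whether a probe lies in a coding exon or a UTR.

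All levels below are log2 intensities relative to the array's own 75th percentile. A value of 1 is then a doubling over that percentile, and levels of different probes are not set against each other. Between 62.5% and 75.4% of features were well above background on an array, and the 75th percentile lay between 1483 and 2531 intensity units. The depletion of Cbx7 did not pass at either of its probes in ES cells or EB9. The Cbx7 probe A_55_P1980401 read -7.85, -4.44, -4.61 and -7.37 in ES knockdown cells, against -6.30, -3.14 and -3.04 in ES controls. It was well above background on 2 of 4 ES knockdown and 3 of 3 ES control arrays, and on 2 of 4 EB9 knockdown and 2 of 4 EB9 control arrays, so its lower values are only bounds. The groups overlapped, and this probe followed the slide: the change was -1.91 (adjusted p = 0.256, limma), and -1.41 (adjusted p = 0.0001) with the slide as a block. In EB9 it was -0.27 (adjusted p = 0.920, and 0.221 with the slide as a block, limma). The second Cbx7 probe, A_55_P1980408, was well above background on all arrays. It changed by -0.13 in ES cells (adjusted p = 0.733, limma), or -0.03 with the slide as a block (adjusted p = 0.868), and by -0.16 in EB9 (adjusted p = 0.708, or 0.360 with the block, limma). The labels' word knockdown is kept on that footing. The 15 arrays came from 4 slides, each group sat at one fixed position on its slide, and position and group cannot be told apart.

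Lin28a, read by A_55_P2074371 (chr4:133559245-133559304, mm9), had levels of 1.11, 2.34, 1.51 and 1.66 in EB9 knockdown, against 2.36, 2.82, 2.31 and 2.40 in EB9 controls. In ES knockdown cells it had 2.62, 2.55, 2.39 and 2.60, against 2.35, 2.21 and 2.21 in ES controls. EB9 knockdown was the low group, except that its replicate 2 lay inside the range of the EB9 controls. The other 3 groups lay close together, with ES knockdown above ES control on every array and EB9 control overlapping both.

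Lin28b, by its brighter probe A_55_P1970905 (chr10:45096468-45096527), had levels of 0.74, 1.58, 0.95 and 0.90 in EB9 knockdown, against 1.34, 1.97, 1.57 and 1.54 in EB9 controls. In ES knockdown cells it was 0.93, 1.03, 0.95 and 0.88, against 0.15, 0.13 and 0.07 in ES controls. ES control was the lowest group, apart from all others. EB9 knockdown and ES knockdown overlapped in the middle, and EB9 controls were highest, with replicate 2 of EB9 knockdown inside their range.

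Trim71, by its brighter probe A_55_P1962334 (chr9:114420415-114420474), had levels of 2.72, 3.37, 2.88 and 3.104 in EB9 knockdown, against 3.18, 3.45, 3.14 and 3.30 in EB9 controls. ES knockdown arrays read 3.49, 3.43, 3.33 and 3.49, against 3.75, 3.54 and 3.54 in ES controls. The means ran in that order from low to high. Knockdown and control did not overlap in ES cells, every other pair of neighbours did, and replicate 2 was the highest array in both EB9 groups.

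Igf2bp1, by A_51_P497113 (chr11:95824526-95824585), had levels of 2.59, 2.95, 2.69 and 2.75 in EB9 knockdown, against 2.90, 2.98, 2.79 and 2.87 in EB9 controls. In ES cells with the knockdown it read 3.11, 2.99, 3.05 and 3.02, against 2.98, 2.99 and 2.93 in ES controls. It moved least of the Igf2bp genes: all 15 arrays lay between 2.59 and 3.11, and EB9 knockdown was lowest on average. Replicate 2 was again the highest array of both EB9 groups, as for Lin28a, Lin28b and Trim71.

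Igf2bp2, by A_51_P315682 (chr16:22059260-22059319), had levels of 1.60, 1.72, 1.70 and 1.66 in EB9 knockdown, against 1.51, 1.57, 1.70 and 1.60 in EB9 controls. ES knockdown samples read -0.39, -0.22, -0.27 and -0.33, against -0.68, -0.47 and -0.49 in ES controls. Both EB9 groups were far above both ES groups and overlapped each other, while ES knockdown was above ES control on every array.

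Igf2bp3, by A_52_P508974 (chr6:49035710-49035769), had levels of 1.51, 1.48, 1.39 and 1.43 in EB9 knockdown, against 1.53, 1.63, 1.54 and 1.56 in EB9 controls. The ES knockdown arrays had 0.79, 0.78, 0.78 and 0.77, against 0.17, 0.29 and 0.28 in ES controls. No groups overlapped. Control EB9 was highest, then EB9 knockdown, then ES knockdown, then ES control.

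Hmga1, by its brightest probe A_51_P483118 (chr17:27700543-27700602), had levels of 6.07, 6.19, 6.06 and 6.12 in EB9 knockdown, against 6.55, 6.43, 6.39 and 6.43 in EB9 controls. In ES cells the knockdown arrays read 7.04, 6.89, 6.76 and 7.03, against 6.74, 6.66 and 6.76 in ES controls. The EB9 groups were separate and below the ES groups, which touched at 6.76.

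Hmga2, by its brighter probe A_52_P300730, had levels of 2.92, 3.01, 3.00 and 2.87 in EB9 knockdown, against 2.84, 3.05, 3.23 and 3.12 in EB9 controls. ES knockdown arrays gave -2.15, -2.12, -1.92 and -2.07, against -2.28, -2.19 and -2.11 in ES controls. Every EB9 array was far above every ES array, and knockdown and control overlapped at both stages.

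**Figure D1:**
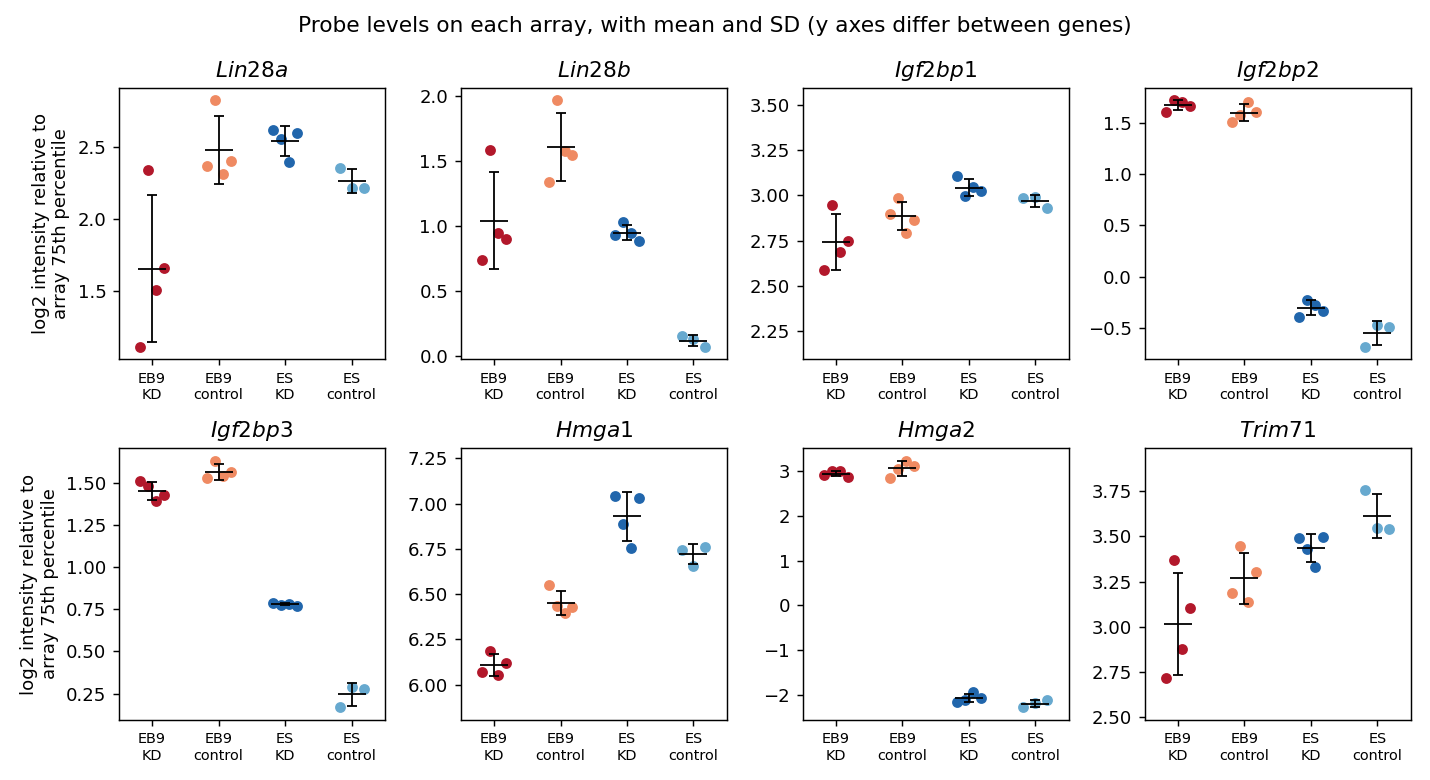
Level of each gene's brightest probe on each array, as log2 intensity relative to the array's 75th percentile (y axes differ between genes), for EB9 knockdown, EB9 control, ES knockdown and ES control; bars are mean and SD over 4 arrays, or 3 for ES control. Hmga1, Hmga2, Igf2bp2 and Igf2bp3 separate EB9 from ES cells. Knockdown and control do not overlap in ES cells for Lin28a, Lin28b, Igf2bp1, Igf2bp2, Igf2bp3 and Trim71, nor in EB9 for Hmga1 and Igf2bp3. Of these, Lin28a, Igf2bp1 and Trim71 did not pass in ES cells, and Igf2bp3 did not pass in EB9. The share of all genes without overlap is not given, so this is a description.

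In control cells, EB9 had more Hmga2, Igf2bp2, Lin28b and Igf2bp3 mRNA than ES cells. Hmga2 differed most, by 5.25 ± 0.09 on the log2 scale (SE from limma, n = 4 and 3), or 38.1-fold (adjusted p = 1.58e-14). Igf2bp2 was higher by 2.14 ± 0.07 (adjusted p = 4.12e-12), Lin28b by 1.49 ± 0.17 (adjusted p = 3.53e-06) and Igf2bp3 by 1.32 ± 0.05 (adjusted p = 2.19e-11, limma). Of the 8 genes, 4 rose, where 33.2% of the 21184 genes tested rose. Another 2 of 8 fell, where 41.5% of all genes fell, so that most genes on the array passed in this comparison (74.7%). The median change of the 8 was 0.77, against -0.14 over all genes.

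Hmga1, at -0.27 ± 0.07 (adjusted p = 0.00396, limma), and Trim71, at -0.34 ± 0.13 (adjusted p = 0.0294), were the 2 that fell in control cells. The median gene stood at -0.14. Neither passed with quantile normalisation (Hmga1 -0.13, adjusted p = 0.0587; Trim71 -0.26, adjusted p = 0.0948), nor with the array median as centre (-0.11 and -0.19), nor in the authors' deposited table (-0.14 and -0.23). Trim71 also missed the threshold without ES control replicate 2 (-0.27, adjusted p = 0.115, limma), EB9 control replicate 1 (-0.32) or EB9 control replicate 3 (-0.30). Lin28a, at 0.22 (95% interval -0.26 to 0.69, adjusted p = 0.387), and Igf2bp1, at -0.08 (-0.25 to 0.08, adjusted p = 0.342, limma), did not pass. Within the 3 slides that held both groups, the difference was 5.12 to 5.34 for Hmga2, 2.05 to 2.19 for Igf2bp2, 1.19 to 1.84 for Lin28b and 1.26 to 1.36 for Igf2bp3.

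In knockdown cells, Hmga2, Igf2bp2 and Igf2bp3 were again higher in EB9, while Lin28a, Hmga1, Trim71 and Igf2bp1 were lower. Hmga2 rose by 5.01 ± 0.08 (32.3-fold, adjusted p = 1.12e-14), Igf2bp2 by 1.97 ± 0.06 (adjusted p = 3.74e-12) and Igf2bp3 by 0.67 ± 0.05 (adjusted p = 8.97e-09, limma, n = 4 each). Lin28a changed by -0.88 ± 0.20 (1.85-fold lower, adjusted p = 0.00121) and Hmga1 by -0.82 ± 0.07 (1.77-fold lower, adjusted p = 6.48e-08, limma). Lin28b, called in control cells, was at 0.09 here (95% interval -0.26 to 0.44, adjusted p = 0.614, limma). So 3 of 8 rose against 33.7% of all genes, and 4 of 8 fell against 44.1%, shares near those of the array, where 77.9% passed in either direction. The median change of the 8 was -0.10, against -0.18 over all genes.

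Trim71 at -0.42 ± 0.12 (adjusted p = 0.00648) and Igf2bp1 at -0.30 ± 0.07 (adjusted p = 0.00145, limma) were the smaller falls in knockdown cells. In the authors' deposited table they were -0.20 (adjusted p = 0.149) and -0.16 (adjusted p = 0.193), and did not pass. Within the 4 slides the difference was 4.92 to 5.12 for Hmga2, 1.94 to 1.99 for Igf2bp2, 0.61 to 0.72 for Igf2bp3, -1.51 to -0.21 for Lin28a and -0.97 to -0.70 for Hmga1. Lin28a was lower on 4 of 4 slides and least so on slide 2.

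**Figure D2:**
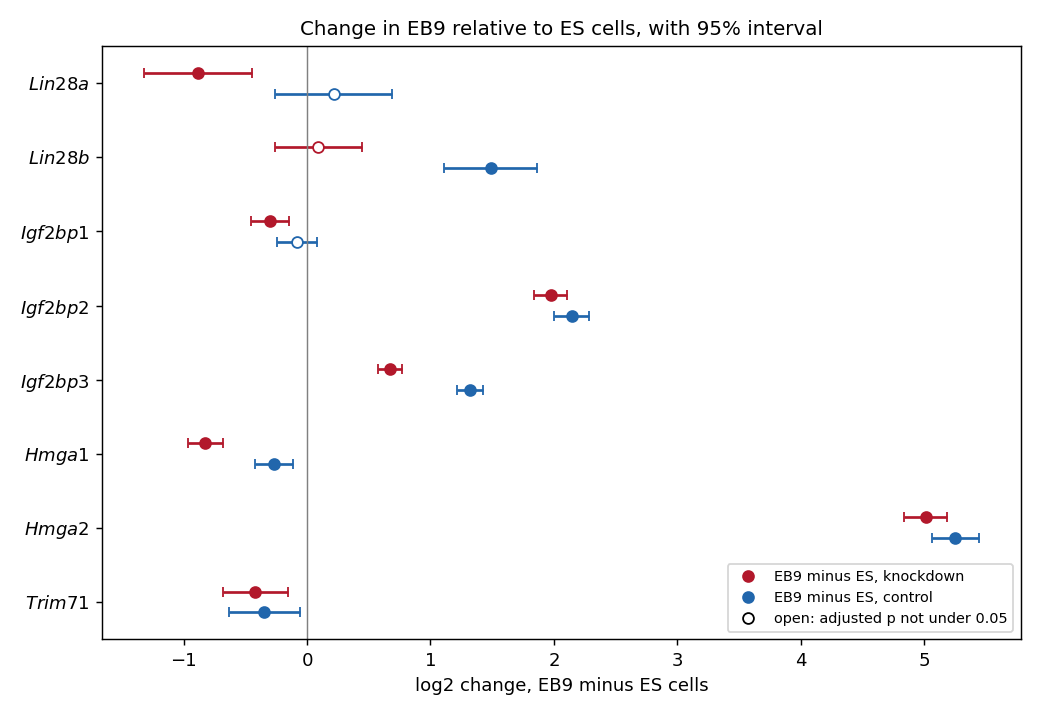
Log2 change in EB9 relative to ES cells (x axis) for each gene's brightest probe, in knockdown cells (red, upper) and control cells (blue, lower), with 95% intervals; open points did not pass. Hmga2 stands at 5.01 and 5.25. The knockdown point lies furthest left of the control point for Lin28b, Lin28a, Igf2bp3 and Hmga1, the genes whose difference passed. The median difference over all genes was -0.04.

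Cell types changed along with these genes. All 15 pluripotency markers were lower in EB9 than in ES cells, with summed levels (array 75th percentile = 1 for each gene) of 20.0 to 24.9 in EB9 knockdown and 19.5 to 25.0 in EB9 control, against 283 to 308 in ES knockdown and 317 to 328 in ES control. Fibroblast and mesenchyme markers, among which feeder cells would count, summed to 102 to 158 in EB9 knockdown and 94.7 to 140 in EB9 control, against 3.29 to 3.69 in ES knockdown and 2.98 to 3.20 in ES control. Of the 8 markers in that list, 7 were higher in EB9 and 1 lower, in knockdown and control cells alike. In each ES group 4 of the 8 were well above background on most arrays. Blood and endothelium markers summed to 111 to 213 in EB9 knockdown and 124 to 237 in EB9 control. They summed to 1.32 to 1.41 in ES knockdown and 1.46 to 1.54 in ES control. Sums of trophoblast, endoderm, primed epiblast, primitive streak and cardiac markers were also higher in EB9, while those of neural markers were lower. The part of these cell types in the EB9 results was not tested. In such mixed samples, fewer cells of a type and less RNA per cell cannot be told apart.

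In ES cells, knockdown raised the let-7 inhibitor Lin28b and the mRNA-binding Igf2bp3 and Igf2bp2, while no fall among the 8 passed at the brightest probe. Lin28b was higher by 0.83 ± 0.17 (1.78-fold, adjusted p = 0.00226) and Igf2bp3 by 0.53 ± 0.05 (1.45-fold, adjusted p = 3.9e-06, limma, n = 4 and 3). Igf2bp2 was higher by 0.24 ± 0.07 (1.18-fold, adjusted p = 0.0115), and by 0.38 ± 0.06 at its second probe (adjusted p = 0.000186, limma). With Hmga1, at 0.21 ± 0.07 (adjusted p = 0.0349, limma), 4 of 8 rose against 21.9% of all genes, and 0 of 8 fell against 16.4% (limma; also 0 at an unadjusted p under 0.05). The median change of the 8 was 0.23, against 0.04 over all genes, and 38.3% of genes passed in either direction.

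Lin28b, Igf2bp3 and the second Igf2bp2 probe passed under every alternative run, with ranges of 0.70 to 0.89, 0.50 to 0.57 and 0.33 to 0.42. The first Igf2bp2 probe did not pass in the authors' deposited table (0.23, adjusted p = 0.0625) or without ES control replicate 2 (0.18, adjusted p = 0.0617). Hmga1 kept its call under 15 of 25 alternatives, and was 0.04 with quantile normalisation (adjusted p = 0.604, limma). It also lost the call without ES knockdown replicate 1 (0.17) or 4 (0.18), and without ES control replicate 2 (0.22), 3 (0.18) or 4 (0.23). On the 3 shared slides the change was 0.78 to 0.90 for Lin28b, 0.49 to 0.62 for Igf2bp3, 0.22 to 0.29 for Igf2bp2 and -0.0033 to 0.30 for Hmga1. Lin28a, Igf2bp1 and Hmga2 were also higher on 3 of 3 slides, and did not pass.

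The others did not pass in ES cells. Lin28a was at 0.28 (95% interval -0.19 to 0.75, adjusted p = 0.352), Igf2bp1 at 0.08 (-0.09 to 0.24), Hmga2 at 0.12 (-0.06 to 0.31) and Trim71 at -0.18 (-0.46 to 0.11, adjusted p = 0.328, limma). Pluripotency markers went both ways in the same cells, with 3 of 15 higher and 3 lower. Visceral and parietal endoderm markers had 5 of 10 lower, among them Afp, which was not well above background on any ES array, with summed levels of 34.0 to 38.1 in ES knockdown and 53.2 to 56.1 in ES control. Trophoblast markers had 4 of 6 higher and 1 lower, summing to 15.3 to 16.9 in ES knockdown and 11.4 to 12.2 in ES control. Of 8 primed epiblast markers 3 were higher and 1 lower, with sums of 10.5 to 10.8 in ES knockdown and 13.3 to 14.1 in ES control. Fibroblast and mesenchyme markers had 2 of 8 lower, with sums of 3.29 to 3.69 in ES knockdown and 2.98 to 3.20 in ES control. Their part in the ES results was not tested.

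In EB9, knockdown lowered both Lin28 genes and Hmga1, while no rise among the 8 passed. Lin28a changed by -0.82 ± 0.20 (1.77-fold lower, adjusted p = 0.0177), Lin28b by -0.56 ± 0.16 (1.48-fold lower, adjusted p = 0.0358) and Hmga1 by -0.34 ± 0.07 (1.27-fold lower, adjusted p = 0.00557, limma, n = 4 each). So 3 of 8 fell against 6.98% of all genes, and 0 of 8 rose against 7.74% (limma; also 0 at an unadjusted p under 0.05), with 14.7% of genes passing in either direction. The median change of the 8 was -0.20, against -0.01 over all genes. The second Hmga1 probe fell as well, by 0.50 ± 0.14 on the log2 scale (adjusted p = 0.0307, limma).

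None of these calls in EB9 held under every alternative, though no sign changed. Lin28a missed the threshold only without EB9 knockdown replicate 3 (-0.77, adjusted p = 0.0563, limma), and its range was -1.05 to -0.64. Lin28b kept its call under 15 of 25 alternatives, in a range of -0.75 to -0.44. It was lost in the authors' deposited table (-0.57, adjusted p = 0.0772), without ES control replicate 3 (adjusted p = 0.0503), without EB9 knockdown replicate 1 (-0.46), 3 (-0.53) or 4 (-0.52), and without EB9 control replicate 2 (-0.44), 3 (-0.58) or 4 (-0.59). Hmga1 was lost with the array median as centre (-0.39, adjusted p = 0.0751, limma). Its second probe was lost there too (-0.55, adjusted p = 0.124, limma), and without EB9 knockdown replicate 3 (-0.45) or 4 (-0.52), or EB9 control replicate 1 (-0.42) or 4 (-0.48). Within the 4 slides the change was -1.25 to -0.49 for Lin28a, -0.65 to -0.39 for Lin28b and -0.48 to -0.25 for Hmga1, lower on 4 of 4 slides for each, as also for Trim71, Igf2bp1 and Igf2bp3, which did not pass.

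The others did not pass in EB9. Trim71 was at -0.25 (95% interval -0.51 to 0.01, adjusted p = 0.202), Igf2bp1 at -0.14 (-0.29 to 0.01, adjusted p = 0.206) and Igf2bp3 at -0.11 (-0.21 to -0.01, adjusted p = 0.121, limma). Hmga2 was at -0.12 (-0.29 to 0.06) and Igf2bp2 at 0.07 (-0.06 to 0.21). Without EB9 knockdown replicate 2, whose levels stood nearest the controls, Trim71 (-0.37, adjusted p = 0.0247) and Igf2bp1 (-0.21, adjusted p = 0.0224, limma) passed as lower, and 5 of the 8 genes fell. That fit passed 5448 probes against 3852 over all arrays, and kept EB9 control replicate 2 of the same slide. Primed epiblast markers were lower for 4 of 8, summing to 21.4 to 24.9 in EB9 knockdown and 24.3 to 28.2 in EB9 control. Primitive streak and mesoderm markers were lower for 4 of the 8 measured, summing to 9.44 to 11.2 in EB9 knockdown and 11.8 to 12.9 in EB9 control. The other 2 of the 10 listed, Mixl1 and Msgn1, did not pass the filter. Of the 15 pluripotency markers, 6 were higher and 2 lower. The part of these cell types in the EB9 falls was not tested.

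**Figure D3:**
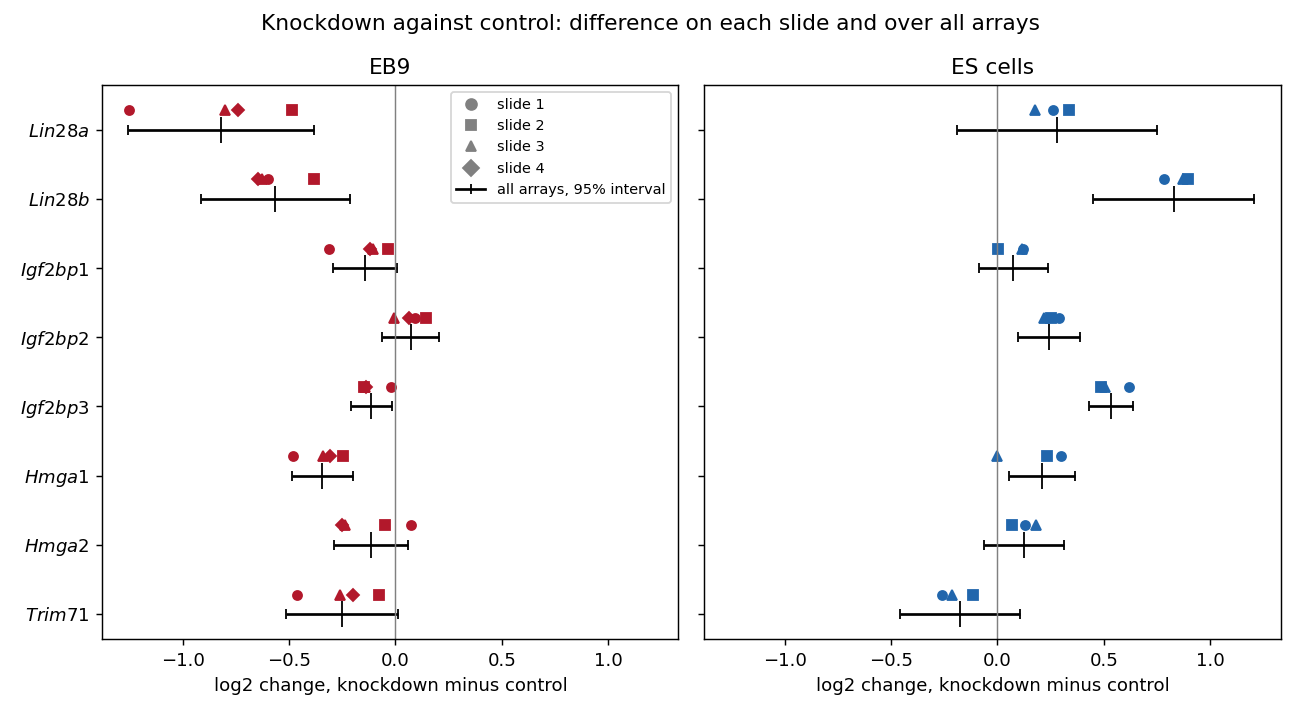
Log2 change in knockdown relative to control (x axis) in EB9 (left) and ES cells (right): coloured symbols are the difference on each slide, and black bars the change over all arrays with its 95% interval. In EB9 the symbols of all but Igf2bp2 and Hmga2 lie below 0 on 4 of 4 slides, and in ES cells those of all but Hmga1 and Trim71 lie above 0 on 3 of 3. Of these, Lin28a, Lin28b and Hmga1 passed in EB9, and Lin28b, Igf2bp2 and Igf2bp3 in ES cells. The same share of all genes is not given, so this is a description.

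The knockdown effect differed between EB9 and ES cells for 4 of the 8 genes, and was lower in EB9 for each. The difference, the effect in EB9 minus that in ES cells, was -1.39 ± 0.24 for Lin28b (adjusted p = 0.000854), -1.10 ± 0.30 for Lin28a (adjusted p = 0.0139), -0.65 ± 0.07 for Igf2bp3 (adjusted p = 2.36e-05) and -0.55 ± 0.10 for Hmga1 (adjusted p = 0.00108, limma interaction, n = 4, 4, 4 and 3). These 4 passed under every alternative run. Over all genes 16.8% had a lower effect in EB9 and 12.6% a higher one, 29.5% together. The median difference of the 8 was -0.40, against -0.04 over all genes. Lin28b and Hmga1 were called lower with knockdown in EB9 and higher in ES cells, whereas the knockdown effect passed on its own for Lin28a in EB9 and for Igf2bp3 in ES cells.

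Igf2bp1 at -0.22 (95% interval -0.44 to 0.01), Hmga2 at -0.24 (-0.50 to 0.02), Igf2bp2 at -0.17 (-0.37 to 0.03) and Trim71 at -0.07 (-0.46 to 0.31) did not pass this test of the difference (adjusted p = 0.138, 0.156, 0.191 and 0.819, limma). With the slide as a block Igf2bp2 (-0.17, adjusted p = 0.0342) and Hmga2 (-0.24, adjusted p = 0.0397, limma) passed as well. Without EB9 knockdown replicate 2, Igf2bp1 passed (-0.29, adjusted p = 0.0184, limma), in a fit that passed 8435 probes for the difference against 7870 over all arrays. The second Igf2bp2 probe passed at -0.29 ± 0.08 (adjusted p = 0.0141), but not in the authors' deposited table (-0.22, adjusted p = 0.102). The dim second Lin28b probe did not pass, and had the opposite sign to the brighter one, at 0.21 (95% interval -0.73 to 1.15, adjusted p = 0.782, limma).

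The 5 genes with several probes differed in how closely the probes followed each other. Hmga2's second probe, A_55_P2043921 (chr10:119800621-119800680), followed the first over the 15 arrays with r = 1.00 and changed by 4.89 and 4.98 in EB9 of knockdown and control cells. Igf2bp2's second probe, A_55_P2170737 (chr16:22059582-22059641), followed with r = 1.00 and changed by 2.06 and 2.35. Arrays of the same group and slide share these correlations, which are descriptions.

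Hmga1's second probe, A_55_P2076057 (chr17:27696588-27696647), followed the brightest with r = 0.95. In knockdown cells it was lower in EB9 by 1.14 ± 0.14 (adjusted p = 4.85e-06), with its difference of effects at -0.90 ± 0.21 (adjusted p = 0.00561, limma). In ES cells its knockdown change of 0.39 did not pass (adjusted p = 0.0576), and did with the slide as a block (0.36, adjusted p = 0.000213, limma). The block also gave it a call in EB9 of control cells (-0.27, adjusted p = 0.00045, limma). Hmga1's dimmest probe, A_66_P102232 (chr17:27693913-27693973), read between -6.10 and -4.87 on all arrays, had r = -0.26 with the brightest, and passed in no comparison.

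Lin28b's dim second probe, A_52_P532355 (chr10:45140412-45140471), was well above background on all 8 EB9 arrays, but on 2 of 4 ES knockdown and 2 of 3 ES control arrays. It rose in EB9 of knockdown cells (1.21 ± 0.30, adjusted p = 0.00203), where the brighter probe did not pass, and in EB9 of control cells (1.00 ± 0.32, adjusted p = 0.012, limma). The control call was lost without ES control replicate 3 (0.78, adjusted p = 0.0652, limma). Only the EB9 groups brought this probe past the filter, so these rises in EB9 are descriptions. Its knockdown changes of -0.26 in ES cells and -0.05 in EB9 did not pass, and r with the brighter probe was 0.55. Which transcripts each probe reads is not given in the files.

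Trim71's dim second probe, A_55_P2084348 (chr9:114421669-114421728), had r = 0.53 with the first and passed in no comparison over all arrays. With the slide as a block it passed as lower with knockdown in ES cells (-0.25, adjusted p = 0.0440, limma). A probe for the pseudogene Hmga2-ps1 behaved unlike Hmga2. In EB9 relative to ES cells it changed by -2.37 ± 0.09 in knockdown cells (adjusted p = 3.5e-11) and by -1.74 ± 0.10 in control cells (adjusted p = 2.2e-09, limma). Its signal is not part of the Hmga2 values.

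The promoters of the genes differed in base makeup. RefSeq (GRCm38.p6) held promoters of 7 of the 8 genes, all but Igf2bp1. In the 250 bases before the start, Igf2bp2 had 40 CpG, more than 98.7% of the 32851 promoters, and Hmga1 had 34 and 35 at its 2 starts. Igf2bp3 had 21 and Trim71 17, while Hmga2 had 8, Lin28a 7 and Lin28b 6, where the median promoter had 6. The E-box CACGTG, which reads the same on both strands, was in 6.02% of all promoters, and stood once each in those of Lin28b and Igf2bp3. These 2 are shown because they hold the motif, in capitals. Both genes were called higher in ES knockdown than in ES control, as were Igf2bp2 and Hmga1, whose promoters lacked CACGTG in these bases.
Lin28b, chr10:45470202-45470451, minus strand: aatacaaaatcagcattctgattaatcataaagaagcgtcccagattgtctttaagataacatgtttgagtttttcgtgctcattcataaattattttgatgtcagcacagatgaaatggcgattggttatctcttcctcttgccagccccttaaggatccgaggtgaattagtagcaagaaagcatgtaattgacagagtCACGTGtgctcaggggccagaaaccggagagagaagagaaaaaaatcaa
Igf2bp3, chr6:49214955-49215204, minus strand: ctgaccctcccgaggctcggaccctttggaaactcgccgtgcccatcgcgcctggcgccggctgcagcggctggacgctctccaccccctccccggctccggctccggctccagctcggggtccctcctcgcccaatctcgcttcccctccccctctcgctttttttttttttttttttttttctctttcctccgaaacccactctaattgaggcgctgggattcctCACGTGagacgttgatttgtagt
The presence of these letters is a description and says nothing of whether a factor binds there.

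The gene lists that follow, like the 8 genes, were chosen with results of these data known, so their counts are descriptions. Each count stands beside the same shares of all genes: in EB9 of knockdown cells 33.7% rose and 44.1% fell, in EB9 of control cells 33.2% and 41.5%, with knockdown in ES cells 21.9% and 16.4%, and with knockdown in EB9 7.74% and 6.98%. Of 19 genes that make, modify or load microRNAs, 11 rose and 6 fell in EB9 of knockdown cells, and 12 rose and 3 fell in EB9 of control cells, with median changes of 0.49 and 0.51. Tnrc6c, a scaffold of the silencing complex, had the largest change in control cells, at 2.00 ± 0.05 (adjusted p = 5e-13, limma). In ES cells knockdown raised it by 1.59 ± 0.05 (3.02-fold, adjusted p = 9.57e-10, limma), among 4 genes that rose and 4 that fell. In EB9 knockdown raised 2 and lowered 2, counts that ran from 0 to 3 each when 1 array was left out. The number raised was 1 without EB9 knockdown replicate 3 and 0 without replicate 4, and the number lowered differed in 12 of the 15 such fits. Among the raised was Tnrc6b, another such scaffold, at 0.37 ± 0.09 (adjusted p = 0.0184, limma), a call lost with the array median as centre (0.33) and without EB9 knockdown replicate 4 (0.31) or EB9 control replicate 3 (0.36). The Argonaute gene Ago3 changed by -1.45 in EB9 of knockdown cells, where its probe was well above background on 2 of the 4 EB9 knockdown arrays. The size of this change depended on the setting: it was -1.12 without ES knockdown replicate 2 and -0.56 in the authors' deposited table. In EB9 of control cells Ago3 was well above background on 0 of 4 arrays, and at least 2.38-fold lower than in ES controls. Its probe passed the filter only through the ES groups. No test of these falls is given, and their place among the 6 and 3 that fell is a description.

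Mature let-7 was not measured on these arrays. Of 4 genes listed as let-7 precursors or hosts, 2 were measured. Mir100hg was well above background on 3 of 4 EB9 knockdown and 1 of 4 EB9 control arrays, and on 0 of 4 ES knockdown and 0 of 3 ES control arrays. Its measured means were -6.55 in EB9 knockdown and -8.66 in ES knockdown cells, the latter below background, which bounds the rise at no more than at least 1.05-fold. Its probe passed the filter only through EB9 knockdown, so no test of that rise is given. Huwe1, a ubiquitin ligase gene that hosts members of the family, changed by 0.27 ± 0.07 with knockdown in ES cells (adjusted p = 0.00568), and did not pass in the authors' deposited table (0.18, adjusted p = 0.0645, limma).

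Of 24 measured let-7 targets outside the 8 genes, 14 rose and 7 fell in EB9 of knockdown cells (33.7% and 44.1% of all genes), and 15 rose and 6 fell in control cells (33.2% and 41.5%). The 6 include Nr2e1, which was not well above background in EB9 or ES controls, and were 3 without ES control replicate 3. Nr2e1 is also among the 7, and among the 6 targets that rose with knockdown in ES cells. Its means were -5.94 in ES knockdown, -7.08 in ES controls and -8.53 in EB9 knockdown. The probe passed the filter only through ES knockdown, so its place in these counts is a description. Ccnd2, a D-type cyclin, was the leading change in 3 comparisons. It had levels of 1.59, 1.72, 1.47 and 1.70 in EB9 knockdown, against 2.08, 1.93, 1.82 and 1.96 in EB9 controls. ES knockdown cells had -0.53, -0.45, -0.49 and -0.53, against -3.20, -3.28 and -3.36 in ES controls. No groups overlapped, and ES control stood far below the rest. The knockdown raised it in ES cells by 2.78 ± 0.07 (6.86-fold, adjusted p = 2.24e-10, limma), among 6 targets that rose and 2 that fell. The difference of its effect in EB9 from that in ES cells was -3.11 ± 0.10 (adjusted p = 2.66e-09, limma). In EB9 of control cells it was higher by 5.23 ± 0.07, or 37.4-fold, beside the 5.25 of Hmga2. Thbs1, a secreted matrix protein, led in EB9 of knockdown cells at 4.02 ± 0.13, and with knockdown in EB9 at 0.68 ± 0.13 (adjusted p = 0.00608, limma), where 4 targets rose and 4 fell. Leaving out 1 array gave 1 to 4 and 3 to 6, with 1 risen target without EB9 knockdown replicate 3 or 4 or EB9 control replicate 4, and 2 without EB9 control replicate 1 or 3.

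The IGF2 axis and other oncofetal genes rose in EB9 along with Igf2bp2 and Igf2bp3: 10 of 11 passed as higher, in knockdown and in control cells, with medians of 3.66 and 3.59. The 10 include Afp and Igf2, whose probes passed the filter only through the EB9 groups. Their place in these counts and medians is a description. Afp, the fetal albumin-like protein of yolk sac and liver, was not well above background on any ES array. It was at least 453-fold higher in EB9 knockdown and at least 434-fold higher in EB9 control than in its ES counterpart. Its probe passed the filter only through the EB9 groups, so no test of these rises is given. In ES cells knockdown raised 4 of the 11, led by Dlk1, a Notch-related membrane protein, at 1.12 ± 0.10 (adjusted p = 3.82e-06, limma). Of 3 that passed as lower there, Afp and Igf2 were not well above background on any ES array and give no measured fall, and the third, the imprinted RNA H19, was at -1.12 ± 0.13 (adjusted p = 3.58e-05, limma). In EB9 it raised 2, or 0 without EB9 knockdown replicate 3 or 4 or EB9 control replicate 3 or 4 and 1 without EB9 control replicate 1, and it lowered H19, at -1.03 ± 0.12 (2.04-fold lower, adjusted p = 0.000344, limma). Irs2, Igf1r and Insr stand in this list and in that of let-7 targets.

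Of 8 RNA-binding partners of the Igf2bp proteins, 3 rose and 3 fell in EB9 of knockdown cells, and 5 rose and 3 fell in control cells, where 77.9% and 74.7% of all genes passed in either direction. Ybx1, an mRNA-binding cold-shock protein, was the leading change, at -1.28 ± 0.07 (adjusted p = 7.66e-10) and -1.10 ± 0.07 (adjusted p = 9.57e-09, limma). In ES cells knockdown raised 3 and lowered 1 (0 in 6 of the 15 fits without 1 array), with Hnrnpu, a nuclear RNA-binding protein, at 0.42 ± 0.11 (adjusted p = 0.00754, limma), a call lost with the array median as centre (0.45, adjusted p = 0.056). In EB9 their median change with knockdown was -0.02.

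Of 10 high mobility group genes outside the Hmga family, 4 rose and 2 fell in EB9 of knockdown cells (33.7% and 44.1% of all genes), and 7 rose in control cells (33.2%). The 2 that fell were 1 to 3 when 1 array was left out, a different number in 10 of the 15 such fits. The nucleosome-binding Hmgn2 was the leading change, at 2.19 ± 0.08 (adjusted p = 1.3e-11) and 2.23 ± 0.08 (adjusted p = 2.71e-11, limma). In ES cells knockdown raised 4, with Hmgn5 at 0.97 ± 0.08 (1.97-fold, adjusted p = 1.47e-06, limma). In EB9 it lowered 2 (1 without EB9 knockdown replicate 3 or EB9 control replicate 4, and 4 without EB9 knockdown replicate 2 or EB9 control replicate 1), with Hmg20b at -0.23 ± 0.05 (adjusted p = 0.0102, limma), lost with the array median as centre (-0.28, adjusted p = 0.19). Hmgn5 was also 1 of 3 genes here with a lower knockdown effect in EB9, at -1.21 ± 0.11 (adjusted p = 8.85e-06, limma).

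Cdkn2a and Cdkn2b, the Ink4-Arf cell cycle inhibitors, are targets of Cbx7 and, for Cdkn2a, of Hmga2 in other cells. In EB9 knockdown raised both, Cdkn2b by 0.97 ± 0.12 (adjusted p = 0.000459, limma). In ES cells it raised Cdkn2a by 0.49 ± 0.12 (adjusted p = 0.00496, limma) and Cdkn2b was at -0.45 ± 0.13 (adjusted p = 0.0178, limma), a call lost without ES knockdown replicate 4 or ES control replicate 3 or 4. Cdkn2a was lower in EB9 than in ES cells, at -1.51 ± 0.11 in knockdown and -1.76 ± 0.12 in control cells (adjusted p = 1.66e-08 and 9e-09, limma).

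**Figure D4:**
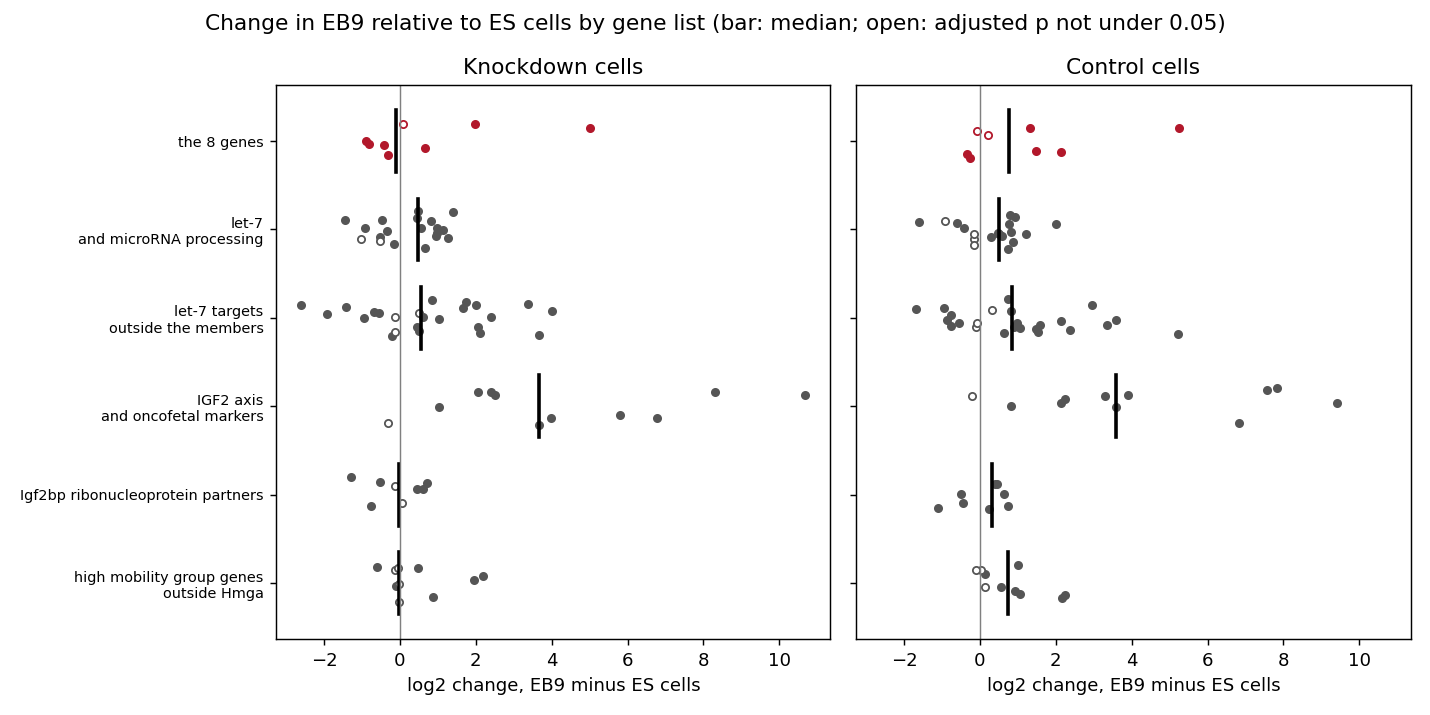
Log2 change in EB9 relative to ES cells (x axis) for the 8 genes (red) and the genes of 5 lists (grey), 1 point per gene, in knockdown cells (left) and control cells (right); black bars are medians, and open points did not pass. The IGF2 and oncofetal list lies furthest right, with medians of 3.66 and 3.59. It includes Afp and Igf2, whose probes passed the filter only through the EB9 groups.

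The genes closest to each of the 8 across the 15 arrays were taken from 21097 others by Pearson correlation of log2 level. Arrays of a group share their stage and treatment, so that a gene separating EB9 from ES cells in the same way scores high. Hmga2 was followed most closely by Plekho1 and Smarca2 (r = 1.00 each), Igf2bp2 by Stbd1 and Eid1 (r = 1.00 each) and Igf2bp3 by 2410022M11Rik (r = 1.00). For Hmga1 it was Atpif1 and Rnf220 (r = 0.99 and 0.98) and for Trim71 Zfp599 and Lrp2 (r = 0.98 and 0.95). Lin28a was nearest to Tmem144 (r = 0.95) and Prdx6-ps2 (r = 0.94), and Igf2bp1 to Ralgps2 (r = 0.95) and B4galnt2 (r = 0.94). The second for Igf2bp3 was an unnamed probe.

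Among themselves the 8 genes fell into a pair of patterns by the same measure. Hmga2, Igf2bp2 and Igf2bp3 had r of 0.94 to 1.00 with each other, and Lin28b had 0.69 to 0.84 with these 3. Lin28a, Igf2bp1, Trim71 and Hmga1 had r of 0.71 to 0.88 with each other. Lin28a and Lin28b, the close relatives, had r = 0.30. Hmga1 and Hmga2 had r = -0.86.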

How the data were processed

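RNA of 15 mouse samples was hybridised to 1-colour arrays, 1 array per sample. Per the file headers, intensities were read with Agilent Feature Extraction 10.7.3.1, which subtracted background and gave a processed intensity per feature. The authors also deposited a table of log2 values, which served as an alternative. It had nearly equal medians on all arrays and followed the log2 mean signals with r of 0.997 to 0.999. Its calls nearly matched those of normexp background correction with quantile normalisation, at 9189 and 9187 probes for knockdown in ES cells. Quantile normalisation alone gave 9739. The deposited table and the normexp run are therefore not separate alternatives.

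Processed signals were set to log2 minus the array's 75th percentile. Each array lost 109 to 179 features with outlier marks, and a probe spotted several times entered as its mean. A probe was kept when well above background on at least 3 arrays of 1 group, which left 27248 of 39429 probes and 21184 genes. Group means were fitted over all arrays with limma 3.58.1 in R 4.3.3, with Benjamini-Hochberg adjustment over all kept probes and a threshold of 0.05. The fit had 11 residual and 1.66 prior degrees of freedom. Fold changes and 95% intervals come from that fit, and the number of arrays limits their precision. On data simulated from the ES comparison over 27248 probes, 78 of 100 probes with a log2 change of 1 and 92 of 100 with a change of 2 were recovered, with 10 false calls. Only 100 probes of each size were changed there, while 10373 probes passed in the real ES comparison. Recovery and false calls depend on that share, so these numbers need not hold for the fit used.

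A gene was represented by its brightest kept probe. All probes of the 8 genes are reported. Of each pathway list the gene with the largest change past the threshold was named per comparison, and for each of the 8 genes the 2 best correlated others. For Lin28b these are not reported here. The members and lists were chosen with earlier results of these data known. Gene names followed RefSeq by accession for 26424 probes and by current or older symbol for 3983 and 826, and stayed as in the files for 8196. Alternatives were 3 other scalings, the authors' table, other filters, kept outlier features, 1 probe per gene, slide and replicate blocks, and each array left out in turn.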

Additional observations from a re-analysis of the deposited data

Results flagged for a closer look

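Among 96 sets of 4 arrays examined, 4 held an array far from the others, where chance gives about 1 in 20. They were Igf2bp2 (A_55_P2170737) in ES knockdown replicate 2, at -1.13 relative to the 75th percentile, Afp in ES knockdown replicate 3, at -8.72 and not well above background, Afp in EB9 control replicate 1, at 2.20, and Hmgn5 in ES knockdown replicate 2, at 0.61.

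The knockdown effect in EB9 differed from that in ES cells, by limma's test of the difference itself, for 6 probes of the 8 genes. The differences, EB9 minus ES cells, were -1.10 for Lin28a, -1.39 for Lin28b, -0.29 for Igf2bp2 (second probe), -0.65 for Igf2bp3, and -0.55 and -0.90 for the Hmga1 probes. Among named genes of the lists it was lower in EB9 for Ccnd2 (-3.11), Tnrc6c (-1.52), Hmgn5 (-1.21), Dlk1 (-1.05) and Elavl1 (-0.36, lost without ES control replicate 3 at -0.35), and higher for Cdkn2b (1.41), Afp (1.28) and Thbs1 (0.67). The Afp difference rests on ES signals not above background, and did not pass in the authors' deposited table (0.42).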

How the results depend on the processing

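Of 35 called results for probes of the 8 genes, 23 passed under every alternative run, among them 0 of 4 for knockdown in EB9. The 35 include the rises of the second Lin28b probe in EB9 of knockdown and of control cells, and the 23 include the rise in knockdown cells. Only the EB9 groups brought that probe past the filter, so its place in both counts is a description. The genes that rose with knockdown in ES cells numbered 2 with normexp and quantile normalisation and in the authors' table, not 4. Those that fell in EB9 of control cells numbered 0, not 2, under these and under quantile normalisation or the array median as centre, and those that fell in EB9 of knockdown cells 2, not 4, under normexp and in the authors' table. Probes past the threshold with knockdown in EB9 numbered 3852, against 1580 with the array median as centre and 6939 with the slide as a block, and those for the difference of effects 7870, against 4900 with the array median. Leaving out 1 array gave 2096 to 5448 probes and 1 to 5 fallen genes in EB9 knockdown, 2 to 4 risen genes in ES knockdown and 1 to 2 fallen genes in EB9 of control cells. The median gene moved by 0.16 with the array median in EB9 of control cells, and by 0.12 with normexp in EB9 of knockdown cells.

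Signs turned only for changes that did not pass. With normexp, and in the authors' table where given second, these were Igf2bp1 in ES knockdown (-0.0535 in both, -0.028 with quantile normalisation), the dimmest Hmga1 probe in ES knockdown (0.0214 and 0.0213, and 0.0046 with the slide block) and in the difference of effects (-0.0031 in both), the second Hmga2 probe in EB9 knockdown (-0.0037 in both, -0.0333 with the array median), the second Trim71 probe in EB9 of knockdown cells (0.1142 and 0.1139, 0.0269 with quantile normalisation, 0.0503 with the array median) and Trim71 in the difference of effects (0.0286 and 0.0285, 0.0212 with quantile normalisation). Igf2bp1 in EB9 of control cells was 0.0739 with the array median. Leaving out 1 array turned the dimmest Hmga1 probe (-0.0716 to 0.3169 in EB9 of control cells, -0.0457 to 0.3428 in the difference, -0.2091 to 0.1795 in EB9 knockdown, -0.2966 to 0.0342 in ES knockdown), the second Lin28b probe (-0.0965 to 0.4319 in the difference, -0.3106 to 0.1076 in EB9 knockdown, -0.4835 to 0.0449 in ES knockdown), the second Trim71 probe (-0.1691 to 0.108 in EB9 of knockdown cells, -0.2516 to 0.0363 in EB9 knockdown), the second Hmga2 probe in EB9 knockdown (-0.047 to 0.0771), Lin28b in EB9 of knockdown cells (-0.0878 to 0.1935) and Trim71 in the difference (-0.1908 to 0.0259). The cause was not tested.

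The slide block ended no call among the 8 genes and added 5 at their probes: the second Trim71 probe (-0.25) and the second Hmga1 probe (0.36) in ES knockdown, the second Hmga1 probe in EB9 of control cells (-0.27, adjusted p = 0.00045, limma), and Igf2bp2 and Hmga2 in the difference of effects. Whether replicate numbers pair the samples cannot be told from these arrays. Apart from the ES controls the number equals the slide, and same-numbered arrays deviated together (median r = 0.38, 12 pairs). The numbers of the ES controls did not follow the slides (median r = -0.34, 9 pairs). Arrays of the same slide had a median r of 0.43 (21 pairs). The replicate block left the counts of the 8 genes as they were, gave 4490 probes for knockdown in EB9 and added the second Hmga1 probe in EB9 of control cells (-0.32, adjusted p = 0.0306, limma).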
